A study of Mus musculus with 17 samples.

Results

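Estradiol-replaced fracture callus was compared with sham callus on 4 of the 17 arrays of the series, chosen by their labels: the OVX + E2 callus arrays EB and ES and the sham callus arrays SB and SS, which share 1 form of title code. Female C57BL/6 mice had the ovaries removed (OVX) or had sham surgery, in which the ovaries were located and left in place, at 8 weeks of age. OVX + E2 mice also received a continuous-release pellet of 0.18 mg 17β-estradiol under the skin at the time of ovariectomy. The study reports that the pellet raised their serum estradiol above that of sham mice. OVX + E2 and sham mice thus differ in estradiol level as well as in surgery. All 4 arrays came from a pin-stabilized femoral fracture made 6 weeks later and from callus cells sorted on day 7. EB and SB hold mBCSPs, the mouse bone cartilage stromal progenitors, and ES and SS hold mSSCs, the mouse skeletal stem cells, each sorted on surface markers in 2 passes. EB minus SB and ES minus SS are therefore 2 population-matched differences, each of 1 array against 1 array. The labels do not say whether an array holds the cells of 1 mouse or of several, and none of the 4 has a second array of its group and population with this form of title. The OVX callus arrays OB and OS, of mice without ovaries and without the pellet, share the same title form and are given beside the results.

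Estradiol acts mainly through the nuclear estrogen receptors, which bind DNA at paired GGTCA letters or act through other transcription factors. In bone it is best known for restraining osteoclasts, the bone-resorbing cells that fuse from myeloid precursors, and for slowing bone loss after the ovaries stop working. A callus on day 7 holds proliferating periosteal cells, fibrous tissue and cartilage beside vessels and blood cells. Skeletal stem cells give rise to the more restricted stromal progenitors, and both populations are sorted free of cells that carry CD45, the surface protein of white blood cells.

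The deposited values are log2 levels per probe set. They were quantile normalized over the 17 arrays and raised to a floor of log2 5.95, below which values have no order. Of 18193 genes with a named probe set, 14504 passed the filter on low values and were tested. The limma error is estimated from how far the mSSC and mBCSP arrays of the 8 pairs in the series depart from a common difference. It is not a spread between mice, and an exact sign-flip test of 2 differences cannot go below p = 0.5. The 4 arrays were alike as a whole: Spearman's rho over the genes tested was 0.972 between EB and SB and 0.958 between ES and SS, and it ran from 0.956 to 0.977 over the 6 callus arrays of this title form. A second pair of sham callus arrays with another form of title code, SIB and SIS, stood further off, with rho of 0.91 to 0.934 against the 4 arrays. Between the 2 sham pairs 845 genes differed by a log2 of over 1 in both populations (5.83% of those tested), against 125 between OVX + E2 and sham. SIB and SIS were kept out of the comparison, and sham without further name stands for SB and SS. Of 128 genes named in the text, 23 had a mean difference of the opposite sign when SIB and SIS took the place of SB and SS.

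Among genes of the sort markers, Itgav, Cd200 and Thy1 were at like levels on the OVX + E2 and sham arrays of a population. Eng, Enpep, Ptprc and Tek differed more, Eng and Tek mainly in mSSCs. Pdpn, which encodes the stromal protein podoplanin, is not among the markers listed for the mouse sort. It was at log2 12.21 on SB, 11.80 on SS, 12.11 on EB and 12.00 on ES. Itgav, the alpha V integrin of the gate, lay between 11.98 and 12.37 on the 4 arrays. Eng, which encodes CD105, was higher on the mBCSP arrays (9.48 on SB and 9.19 on EB) than on the mSSC arrays (8.21 on SS and 7.36 on ES), and Cd200 ran the other way, with 11.55 and 11.50 against 12.27 and 12.28. Thy1 was low on all 4, between 6.81 and 6.99. Enpep, which encodes the gate marker 6C3, read 8.74 on SB and 6.63 on SS against 8.01 on EB and 7.98 on ES, a difference of -0.73 in mBCSPs and 1.35 in mSSCs. Ptprc, the gene of CD45 itself, whose protein the sort excluded, also stood apart. Its probe set read 7.09 on SB and 7.77 on SS but 8.80 on EB and 10.62 on ES, above SB and SS by 1.71 and 2.85. SIB and SIS read 9.61 and 9.73, so EB lay below and ES above this second sham pair. The second Ptprc probe set did not share this, with a mean difference of 0.07. In bulk RNA of this kind more blood cells among the sorted cells and more blood cell RNA per cell cannot be told apart.

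Most genes stayed close to sham. The median of EB minus SB was 0.009 and that of ES minus SS -0.016, with SDs over genes of 0.425 and 0.522. In limma 3 genes of 14504 passed an adjusted p of 0.05 (0.0207%), 0 higher and 3 lower in OVX + E2. At an unadjusted p of 0.05, 359 of the 14504 genes passed in limma, 239 of them higher and 120 lower. That is fewer than this threshold passes on average when no gene differs. By size, 98 genes lay more than a log2 of 1 above sham in both populations (0.676% of the genes tested) and 27 more than 1 below (0.186%), where 26.4% of genes lay above sham and 26.7% below in both by any amount. The same count between OVX and sham callus, which shares the sham arrays, was 58 genes (0.4%), with 27 above and 31 below. The size counts are descriptions without a test. Their border falls in a dense run of values: Slc9b2 and Stx19 lay just inside at 1.001 and 1.003 for the smaller of their differences, and Zfpm2 and Itgb2 just outside at 0.997 and 0.996.

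**Figure D1:**
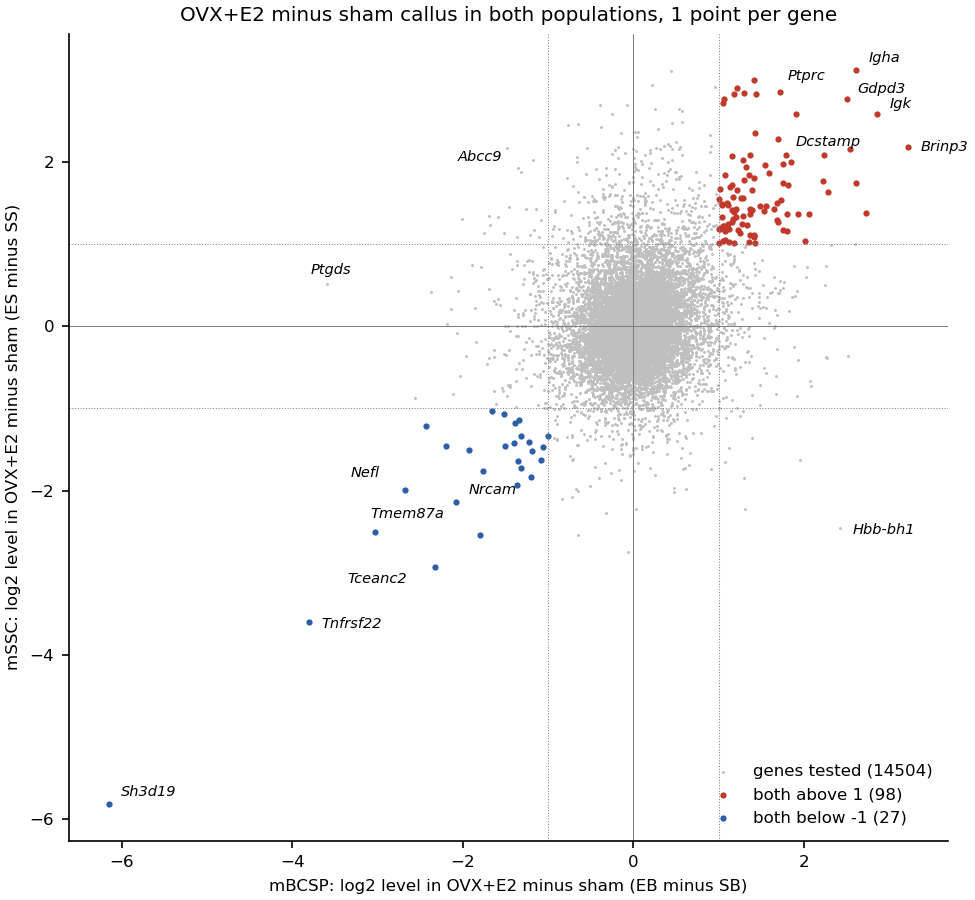
Log2 difference between OVX + E2 and sham callus in mBCSPs (EB minus SB, horizontal axis) and mSSCs (ES minus SS, vertical axis), 1 point per gene tested. The 98 genes above 1 on both axes are red and the 27 below -1 blue. Sh3d19 stands alone at the lower left, with -6.15 and -5.82, and the red group reaches 3.22 at Brinp3 on the horizontal axis and 3.12 at Igha on the vertical axis.

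The 3 called genes were Sh3d19, Tmem87a and Tceanc2, all lower in OVX + E2. Sh3d19 encodes an adaptor protein with SH3 domains that binds ADAM proteases. It read log2 12.10 on SB, 11.77 on SS, 12.21 on OB and 12.13 on OS, and was at the floor on both EB and ES. On the probe set used the arrays do not overlap. Since both OVX + E2 values are at the floor, its difference of -5.99 is a bound, at least 63.4-fold below sham (SE 0.65, limma adjusted p = 0.0115). The bound is of this probe set and not of the gene. The 3 other Sh3d19 probe sets were lower by less, with mean differences of -3.001, -1.868 and -1.135, the last still at 10.01 on EB and 9.82 on ES.

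Tmem87a, which encodes a membrane protein of the Golgi, read 10.89 on SB, 10.44 on SS, 7.86 on EB and 7.93 on ES. The difference of -2.77 (SE 0.28, 95% interval -3.40 to -2.15) had a limma adjusted p of 0.0115. OB and OS lay in between, at 9.10 and 9.47. Tceanc2, named for a domain it shares with transcription elongation factors, read 8.93 on SB, 9.10 on SS, 9.14 on OB and 9.02 on OS against 6.61 on EB and 6.18 on ES. Its difference was -2.63 (SE 0.33, limma adjusted p = 0.0321), and its weaker probe set gave a difference of -0.75. Each of the 3 calls was lost when any 1 of EB, ES, SB or SS was left out, with adjusted p-values between 0.0764 and 0.509, while the differences stayed between -6.09 and -2.22. Sh3d19 was also lost without OUB or OUS, uninjured OVX arrays (adjusted p = 0.0529 and 0.0527), and Tceanc2 in 14 of the 17 fits that left out 1 array, its highest adjusted p being 0.509.

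The rest of the series separates these genes into different patterns. Sh3d19 was near its sham level on the other callus arrays labelled sham (12.17 on SIB and 12.35 on SIS). It was lower on SI and BI, a callus pair whose labels state no surgery, with 9.28 and 7.61, and it was at the floor on 1 array outside the OVX + E2 pair, the uninjured mSSC array SU. Tceanc2 read 9.04 on SIB and 9.26 on SIS, and its lowest value outside the pair was 6.25 on BI. For both genes EB and ES were set apart from the 4 sham and 2 OVX callus arrays. Tmem87a ran the other way: SB and SS were high, and SIB and SIS, also of sham callus, read 7.75 and 7.53, at the level of EB and ES. With SIB and SIS as the sham arrays the difference of Tmem87a was 0.26, while those of Sh3d19 and Tceanc2 kept their direction.

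**Figure D2:**
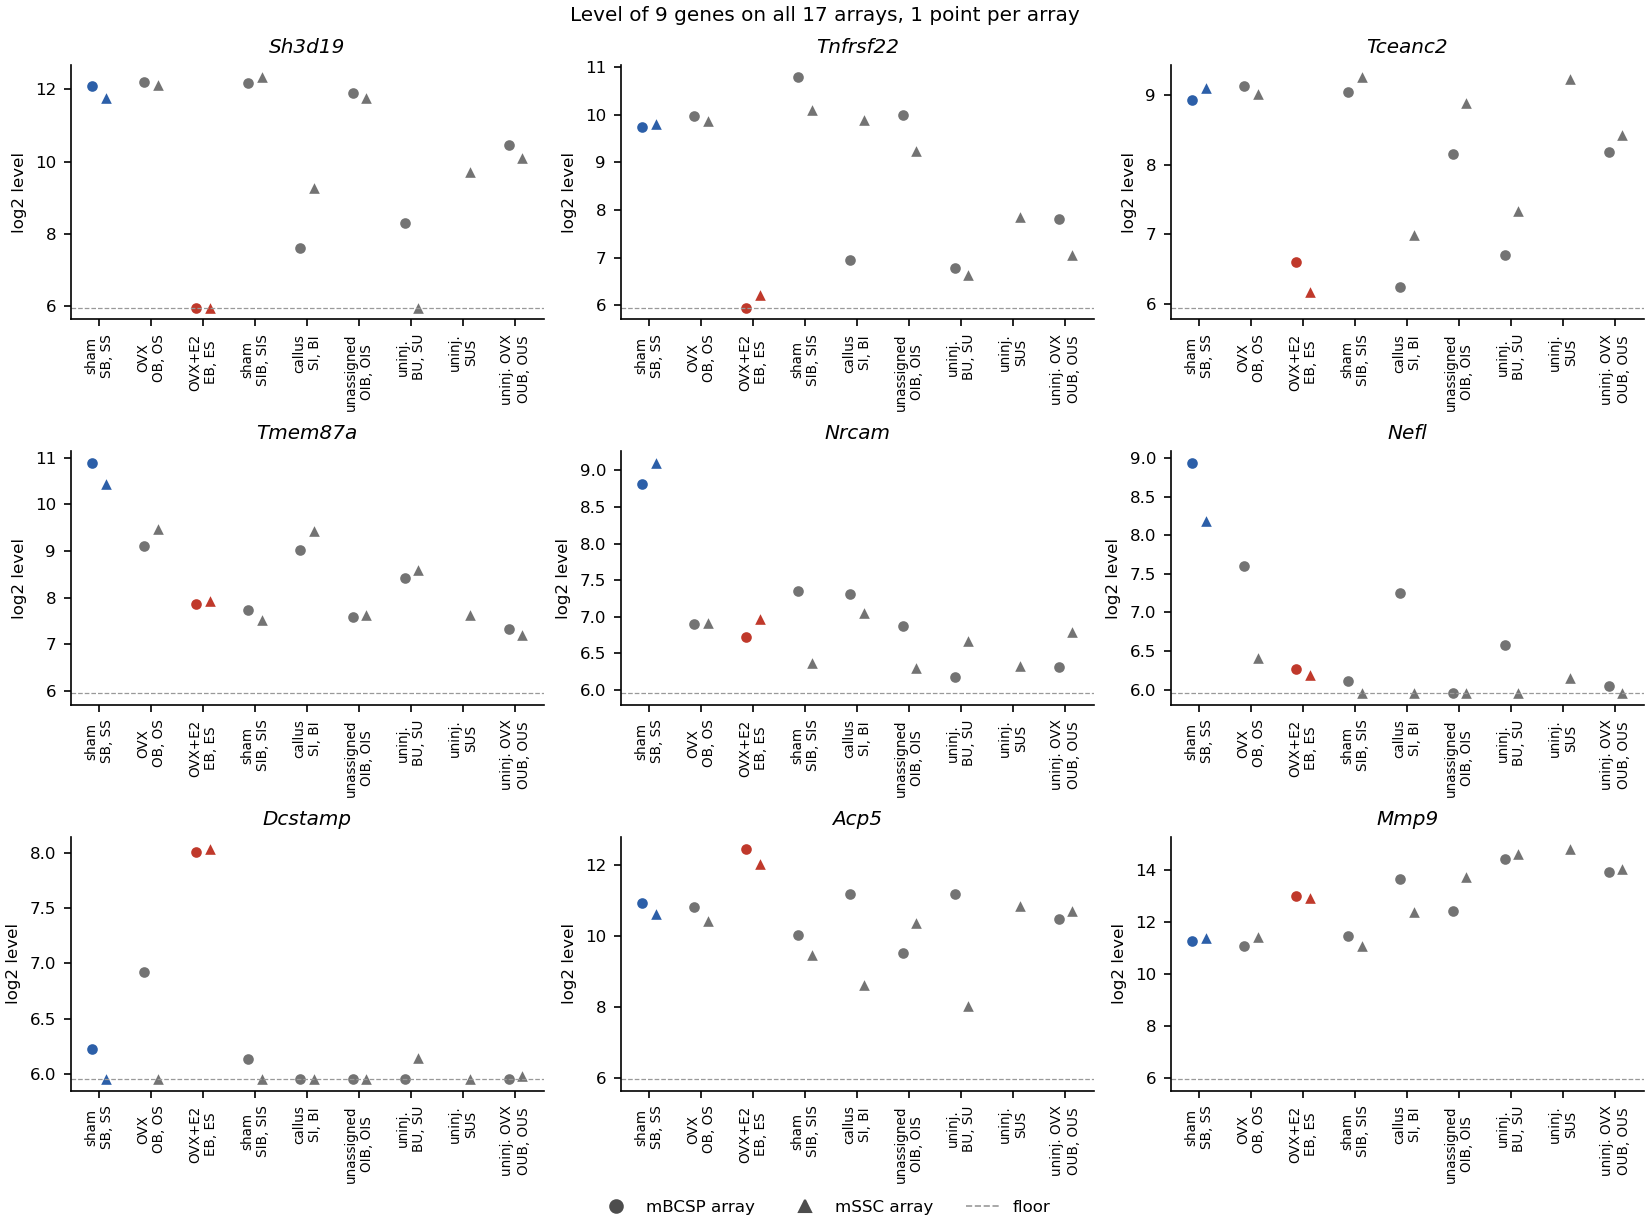
Level of 9 genes in log2 units (vertical axes) on each of the 17 arrays, with circles for mBCSP and triangles for mSSC arrays, OVX + E2 in red, the sham callus arrays SB and SS in blue and the floor as a dashed line. Sh3d19, Tnfrsf22 and Tceanc2 are low on the red arrays and high on the sham and OVX callus arrays, Tmem87a, Nrcam and Nefl are high on the blue arrays, and Dcstamp and Acp5 have their 2 highest values on the red arrays.

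The promoters of the called genes were read for estrogen receptor letters. RefSeq promoter windows (GRCm38.p6, 250 bases before to 50 after a gene's start) are shown for the 3 genes, 5′ to 3′ on the gene's strand, with the 5-letter motif GGTCA on either strand in capitals. Tmem87a lies at chr2:120404067-120404366 on the minus strand, Sh3d19 at chr3:85970868-85971167 on the plus strand and Tceanc2 at chr4:107178317-107178616 on the minus strand.
Tmem87a: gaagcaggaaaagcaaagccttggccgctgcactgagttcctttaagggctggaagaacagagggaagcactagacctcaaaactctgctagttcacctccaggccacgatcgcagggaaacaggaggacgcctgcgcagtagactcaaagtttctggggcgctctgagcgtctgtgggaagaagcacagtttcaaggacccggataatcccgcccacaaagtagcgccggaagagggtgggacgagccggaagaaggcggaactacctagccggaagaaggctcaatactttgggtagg
Sh3d19: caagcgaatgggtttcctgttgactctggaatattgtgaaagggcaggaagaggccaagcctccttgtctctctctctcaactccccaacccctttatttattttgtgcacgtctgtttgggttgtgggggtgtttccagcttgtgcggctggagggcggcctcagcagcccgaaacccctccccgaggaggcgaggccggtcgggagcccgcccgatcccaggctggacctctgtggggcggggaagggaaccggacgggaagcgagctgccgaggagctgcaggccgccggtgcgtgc
Tceanc2: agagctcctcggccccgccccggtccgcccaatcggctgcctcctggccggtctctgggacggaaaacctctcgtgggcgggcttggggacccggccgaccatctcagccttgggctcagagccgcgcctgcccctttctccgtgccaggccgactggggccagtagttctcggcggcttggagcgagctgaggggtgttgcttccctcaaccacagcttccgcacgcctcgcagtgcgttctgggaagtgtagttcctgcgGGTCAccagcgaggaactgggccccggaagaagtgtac
The Tceanc2 window holds the letters 1 time, just after the gene's start, and the other windows hold 0. GGTCA on either strand was present in 38.5% of 91 windows of the higher genes and in 53.3% of 30 windows of the lower genes, beside 38.7% of the windows of all genes tested and 40.5% of all 32851 windows. A facing pair, GGTCA and TGACC with 3 bases between them, was in 0 of these windows of either group and in 0.07% of all windows. Windows were matched for 75 of the 98 higher genes and 19 of the 27 lower genes. A match of letters is a description of the sequence and not a bound site.

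Among the other genes lower in both populations were Tnfrsf22 and Tnfrsf23, neighbours in the genome that encode decoy receptors for the death ligand TRAIL. Tnfrsf22 read 9.75 on SB, 9.82 on SS, 9.98 on OB and 9.88 on OS, but was at the floor on EB and at 6.22 on ES. The 27 lower genes were picked for lying below SB and SS, which are among the other 15 arrays. Of these 27 genes Tnfrsf22 was the 1 with both OVX + E2 arrays below each of the 15 (74 such genes of all tested, 0.51%). Its difference of -3.70 (SE 0.72) did not pass the test (limma adjusted p = 0.349), and its other probe sets, at or near the floor on most arrays, gave -0.48 and -0.12. Leaving out SI or BI brought it past the threshold, with adjusted p-values of 0.00204 and 0.00208. Tnfrsf23 read 8.87 on SB, 8.33 on SS, 9.11 on OB and 8.51 on OS against 6.68 on EB and 6.88 on ES. Both genes were thus near the sham level in OVX callus and low in OVX + E2 callus. Cox4i2, a subunit isoform of cytochrome c oxidase used at low oxygen, read 10.40 on SB, 10.87 on SS, 9.05 on EB and 9.23 on ES, with OB at 9.73 and OS at 10.28. Il11, a cytokine of the interleukin-6 family that acts on bone-forming cells, read 9.85 on SB, 9.63 on SS and 8.46 on each of EB and ES, with OB at 9.39 and OS at 9.86.

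Nrcam, Nefl, Gpm6a and Homer2 were among the 15 genes furthest below SB and SS. Nrcam, a cell adhesion molecule of axons, read 8.81 on SB and 9.11 on SS, against 6.73 on EB, 6.97 on ES, 6.90 on OB and 6.92 on OS. SS and SB held the highest Nrcam values of the series. Its difference of -2.11 (SE 0.37) had a limma adjusted p of 0.301, and its other probe sets were near the floor and gave differences from -0.08 to 0.37. Nefl, the light neurofilament chain, read 8.94 on SB and 8.18 on SS, against 6.26 on EB and 6.19 on ES (difference -2.33, SE 0.35, adjusted p = 0.114), with 7.61 on OB and 6.41 on OS. Gpm6a, a neuronal membrane glycoprotein, read 8.64 on SB, 7.98 on SS, 6.72 on EB and 6.47 on ES, with OB at 6.16 and OS at the floor. Homer2, a scaffold of synapses, read 7.70 on SB, 7.61 on SS, 6.29 on EB and 6.19 on ES, with OB at 6.00 and OS at 6.69, but its other probe sets gave differences of 0.62 and 0.01. SIB and SIS were also low for Nrcam, at 7.35 and 6.36, and with them as the sham arrays the differences of Gpm6a and Nefl were 0.64 and 0.20. The list of Schwann and neural genes, which holds Nrcam, was mixed: of 10 tested 2 were higher and 5 lower in both populations, with a median of -0.05. Gap43 of growing axons had 0.21 and 0.45 and Ncam1, a neural cell adhesion molecule, 0.11 and 0.52. The other genes of the 15 furthest below sham in both populations were Zfp930, Sh2d5, Ube2d2b, Gm13306 and 1500004A13Rik, with mean differences from -2.17 to -1.48.

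Genes of osteoclasts stood higher on the OVX + E2 arrays, which hold sorted cells and not whole callus. Of 12 genes tested on the osteoclast list, 9 were higher and 1 lower than sham in both populations, with a median difference of 0.49 beside -0.003 over all genes, and 0 passed the limma test. Dcstamp, the fusion protein that joins osteoclast precursors, read 6.23 on SB and the floor on SS, against 8.01 on EB and 8.04 on ES. The mean difference was 1.94. Across the 15 other arrays Dcstamp reached at most 6.92, on OB, and was at the floor on 10. It thus passed the filter on low values only through EB and ES, as did 4 more of the 98 higher genes (Heph, Jakmip2, Lgr5 and Lrrc8e, named after their values were seen). For these 5 a difference was built into passing, and their values are given as a description. The count of 9, the median and the mean levels of the osteoclast list include Dcstamp. Acp5, the tartrate-resistant acid phosphatase by which osteoclasts are stained, read 10.95 on SB and 10.63 on SS against 12.47 on EB and 12.03 on ES, above the 11.19 that was its highest value elsewhere. The study stained callus of sham females for this enzyme and reports no effect of locally delivered estradiol. That is another tissue, delivery and measure than these arrays.

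Mmp9, a gelatinase of osteoclasts and neutrophils, read 11.29 on SB, 11.38 on SS, 13.02 on EB and 12.92 on ES, and its second probe set gave a difference of 1.52. Its values on the OVX + E2 arrays were exceeded on uninjured arrays, where it reached 14.84. Atp6v0d2, a proton pump subunit, read 7.33 on SB, 8.65 on SS and 9.64 on each of EB and ES. OVX callus was near or below sham for these genes: OB and OS read 10.82 and 10.43 for Acp5, 11.07 and 11.42 for Mmp9, and 7.03 and 7.14 for Atp6v0d2. The mean level of the 12 genes was 9.60 on SB, 9.56 on SS, 9.58 on OB and 9.38 on OS, against 10.39 on EB and 10.21 on ES. Oscar and Tcirg1 had differences of opposite sign in the populations. The Ptprc probe set and the macrophage and neutrophil lists were above sham on the same arrays, and their part in the osteoclast values was not tested. Tnfsf11, the ligand RANKL that drives osteoclast formation, had 0.29 in mBCSPs and -0.72 in mSSCs, and Tnfrsf11b, its decoy osteoprotegerin, had -0.29 and -0.46. Tnfsf11 was much lower on SIB and SIS, at 6.83 and 7.50, than on EB and ES, at 10.13 on each.

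Macrophage and neutrophil genes stood higher as well, and the neutrophil median was larger in the mSSC arrays, although no single gene was called for a difference between the populations. Of 21 macrophage and monocyte genes 18 were higher and 1 lower in both populations, with a median difference of 0.99. Their mean level was 8.15 on SB, 8.69 on SS, 7.67 on OB and 8.35 on OS, against 9.26 on EB and 9.45 on ES. Ms4a7, a membrane protein of tissue macrophages, read 8.03 on SB, 7.66 on SS, 9.78 on EB and 9.64 on ES. Itgam, the CD11b integrin of myeloid cells, was at the floor on SB and read 7.64 on SS, against 7.88 on EB and 9.01 on ES. Ccr2, the receptor that draws in monocytes, read 6.23 on SB, 6.51 on SS, 7.55 on EB and 7.75 on ES. Mrc1, the mannose receptor, differed in sign, with 2.26 in mBCSPs and -0.38 in mSSCs.

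Of 15 neutrophil genes 13 were higher and 0 lower in both populations, with a median of 0.59 in mBCSPs and 1.54 in mSSCs. The mean level was 9.51 on SB, 10.39 on SS, 10.10 on EB and 11.95 on ES, so that ES was the highest and EB lay below SS. With SIB and SIS as the sham arrays 2 of the 15 genes were higher in both populations and 0 lower. Mmp8, the neutrophil collagenase, was at the floor on SB and read 7.72 on SS, against 7.802 on EB and 9.721 on ES. SIB and SIS had 8.76 and 9.45, and with them as sham the difference of Mmp8 was -0.34. Ltf, lactoferrin of neutrophil granules and also a known estrogen-responsive gene of the uterus, read 10.55 on SB, 11.77 on SS, 11.57 on EB and 13.44 on ES. Ccr1, Clec4a2 and Clec4d, receptors of myeloid cells, had mean differences of 2.16, 1.99 and 1.77.

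None of these blood cell genes passed the limma test. Ptprc, Mmp8 and Ccr1 had medians of 12.02, 11.05 and 10.24 over the 15 other arrays, above both EB and ES, and Ptprc reached 14.74 and Mmp8 14.13 on uninjured arrays. Of the 98 genes higher in both populations 12 were on the 8 blood cell and osteoclast lists, and of the 27 lower genes 0 were, where the lists hold 100 of the 14504 genes tested (0.689%). At that share 0 of 27 says nothing about the lower genes, and Igha, described next, is on none of the lists. The 12 higher genes include Dcstamp, which passed the filter only through EB and ES.

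**Figure D3:**
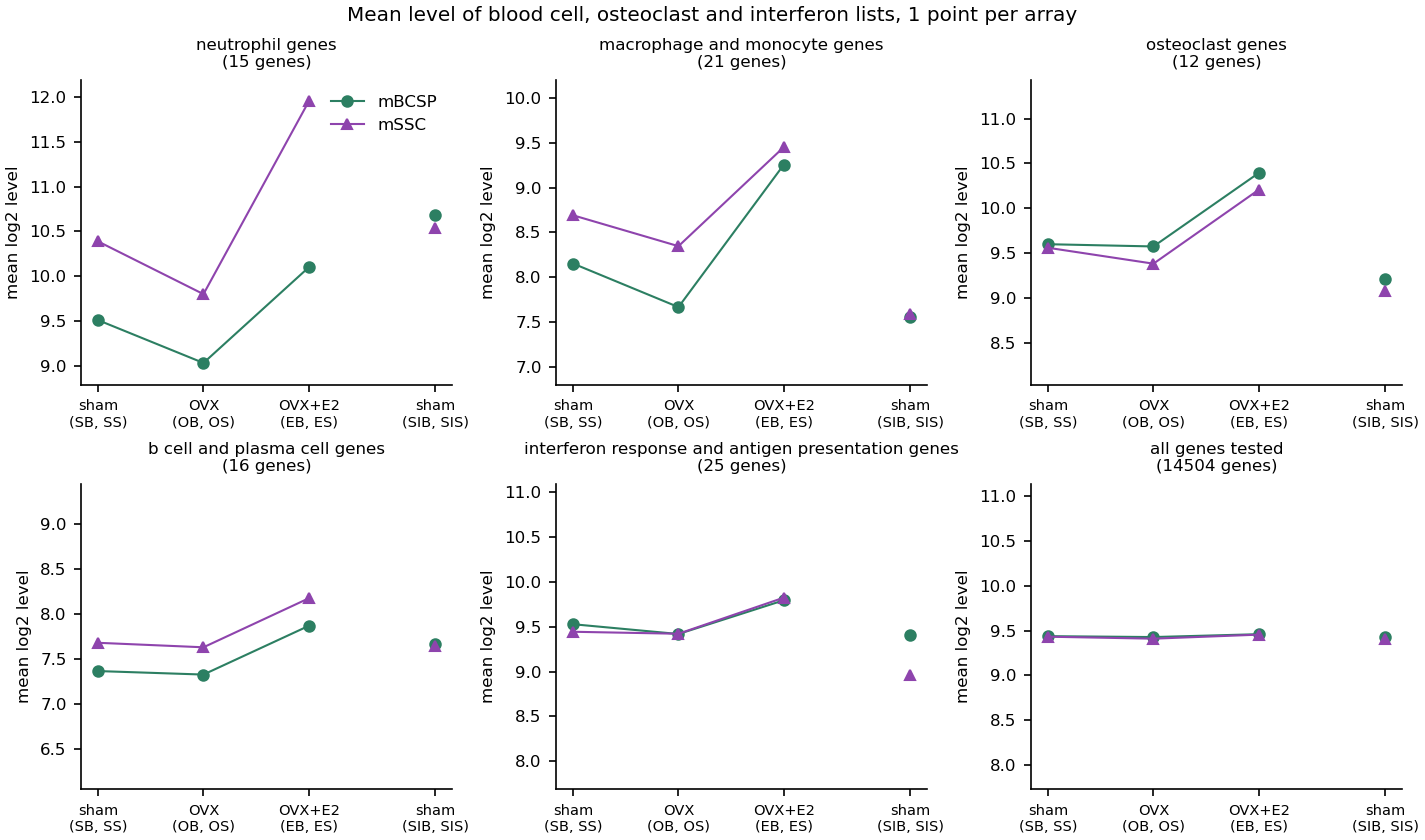
Mean log2 level (vertical axes) of 5 gene lists and of all genes tested, 1 point per array, with circles for mBCSP and triangles for mSSC arrays and lines joining the arrays of 1 population. The OVX + E2 arrays are above the sham arrays SB and SS and the OVX arrays of their population in each list, by most for neutrophil genes in mSSCs. The sham array SIB, at 10.69, is above EB for neutrophil genes, and all genes tested stay between 9.41 and 9.46.

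Immunoglobulin genes, which plasma cells transcribe at high levels, stood higher too. Igha and Igk had the 2 largest mean differences above sham of the 14504 genes. Igha, the heavy chain of immunoglobulin A, read 8.70 on SB, 10.22 on SS, 7.15 on OB and 8.16 on OS, against 11.31 on EB and 13.34 on ES (difference 2.86, SE 1.06, limma adjusted p = 1). Its other probe sets gave 2.63 and 1.92. Igk, the kappa light chain, read 9.24 on SB and 11.16 on SS against 12.10 on EB and 13.75 on ES, and OVX callus was near sham with 9.35 and 11.07. Jchain, the joining chain of secreted antibody, read 6.44 on SB, 8.05 on SS, 8.36 on EB and 10.64 on ES, and was at the floor on both OVX arrays. On uninjured arrays Igha reached 14.11, Igk 15.59 and Jchain 13.03, above EB and ES. Igkv8-30, a kappa variable gene, had a mean difference of 2.18. Immunoglobulin probe sets share sequence between family members, so their assignment to 1 gene is uncertain, and other Igk probe sets gave differences from -0.03 to 0.05. Of the 16 genes tested on the B cell and plasma cell list 9 were higher and 1 lower in both populations, with a median of 0.28. With SIB and SIS as sham these counts were 6 and 4. Other genes of the B cell line differed less evenly: Blnk, a linker of the B cell receptor, had 1.13 in mBCSPs and 0.88 in mSSCs, while Ms4a1 (CD20) had 0.86 and -0.62 and Igll1, a surrogate light chain of precursor B cells, -0.05 and 1.74.

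The medians of the other blood cell lists were close to 0 or below it. T and NK cell genes (9 tested, 2 higher and 2 lower in both) had a median of -0.03, mast cell and basophil genes (9 tested, 3 and 2) 0.08, platelet genes (9 tested, 3 and 4) -0.19 and erythroid genes (10 tested, 1 and 3) -0.14. Endothelial genes, 21 tested, were higher in both populations for 1 and lower for 8, with a median of -0.19. Ramp2, Egfl7 and Kdr of vessels had mean differences of -0.59, -0.43 and -0.57. Tek, whose protein Tie2 the sort excluded, read 7.53 on SB, 7.22 on SS, 7.81 on EB and 5.97 on ES.

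Interferon response and antigen presentation genes leaned upward by less. Of 25 tested 18 were higher and 3 lower in both populations, with a median of 0.33, and 0 passed the test. H2-Aa, a class II histocompatibility chain, read 9.24 on SB, 9.97 on SS, 10.12 on EB and 10.95 on ES. Cd74, the invariant chain of class II molecules, read 8.85, 9.03, 9.56 and 9.93 in the same order, and Mx1, an antiviral GTPase, read 6.27, 6.45, 7.35 and 7.06. H2-Aa and Cd74 are also genes of macrophages and B cells, and the macrophage list and Ptprc stood higher on the same arrays. The part of those cells in this result was not tested. Of 24 chemokine and cytokine genes 11 were higher and 3 lower in both populations (median 0.27). Ccl8, which attracts monocytes, read 7.44 on SB, 7.30 on SS, 8.60 on EB and 8.71 on ES, but OVX callus was as high, with 8.18 and 8.98. Ccl6, Ccl3 and Cxcl2 had mean differences of 0.86, 1.16 and 0.88.

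Some genes far above sham in both populations are on none of the blood cell lists. Brinp3, a gene best known from neurons, read 7.37 on SB, 8.49 on SS, 8.09 on OB and 8.55 on OS against 10.59 on EB and 10.67 on ES, and its highest value on the 15 other arrays was 8.55. The difference was 2.70 (SE 0.49, limma adjusted p = 0.33), and it passed the threshold when SI or BI was left out, with adjusted p-values of 0.0315 and 0.0319. Gdpd3, a lysophospholipase D, read 6.33 on SB, 6.95 on SS, 8.83 on EB and 9.72 on ES, with 6.51 and 6.62 on OB and OS. Unlike Brinp3 it was higher elsewhere, at 13.36 and 12.72 on the uninjured arrays BU and SU, 12.42 on BI and 9.78 on SI. Efcab7, a ciliary protein of hedgehog signalling, was at the floor on SB and read 6.85 on SS, against 8.49 on EB and 9.01 on ES, but OS was at 8.45. Dennd11 read 6.40 on SB and 6.44 on SS against 8.15 on EB and 8.18 on ES, and OVX callus had nearly as much, with 7.58 and 8.09. The following genes were picked out after their values were seen. With Brinp3, Dcstamp, Acp5 and Ms4a7, 14 of the 98 higher genes had both OVX + E2 arrays above each of the other 15 arrays (151 such genes of all tested, 1.04%): Tuft1, Pappa2, Gata6, Galnt16, Slc8a1, Slc9b2, Gpatch11, Lrrc8e, Tbc1d16 and Ccdc3 were the others. The 98 were picked for lying above SB and SS, which are among the 15, so a raised share was built in. Dcstamp, Lrrc8e and Lgr5 also passed the filter on low values only through EB and ES. Tuft1, a protein of mineralizing tissue, read 6.52 on SB, 6.72 on SS, 8.11 on EB and 8.59 on ES, with 7.31 and 7.27 on OB and OS. Pappa2, a protease that frees insulin-like growth factors, read 6.78, 6.39, 7.89 and 7.87 in the same order, and 7.53 and 7.54 in OVX callus. Lgr5, a receptor for R-spondins found on several kinds of stem cells, was at the floor on SB and read 6.34 on SS, against 7.32 on EB and 7.71 on ES, and 7.38 and 6.95 on OB and OS.

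Genes of cartilage lay slightly below sham. Of 27 tested 14 were lower and 6 higher in both populations, with a median of -0.17 beside -0.003 over all genes. Snorc, a chondrocyte proteoglycan, read 10.79 on SB, 11.12 on SS, 10.22 on EB and 10.50 on ES. Col9a2, a chain of the collagen of cartilage fibrils, read 12.85 on SB, 12.61 on SS, 12.32 on EB and 11.84 on ES, and Ucma of growth plate cartilage read 13.90, 14.01, 13.49 and 13.12. OVX callus was as low for Snorc (10.20 and 10.48) and lower for Col9a2 in mBCSPs (11.80), with 11.78 in mSSCs. Sox9, the master transcription factor of cartilage, had differences of -0.31 and -0.51. Ihh, which paces chondrocyte growth, went the other way against SB and SS with 0.47 and 0.46, but SIB and SIS read 12.44 and 12.58, above the 9.53 of EB and 9.86 of ES. Among skeletal transcription factors 4 were higher and 7 lower in both populations of 17 tested, and among osteoblast and mineralization genes 3 and 7 of 17. Phex, a protease of osteocytes and osteoblasts, had -1.46 and -0.73.

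Fibrous matrix genes lay slightly above sham: 19 of 29 tested were higher in both populations and 0 lower, with a median of 0.13. OVX callus was above sham as well. The mean level of the 29 genes was 13.386 on SB, 13.165 on SS, 13.531 on OB and 13.305 on OS, against 13.524 on EB and 13.408 on ES. Mfap5, a microfibril protein, read 12.18 on SB, 11.80 on SS, 12.84 on EB and 12.69 on ES, with 12.23 and 11.86 in OVX callus. Col8a1 read 12.46 on SB, 12.58 on SS, 13.04 on EB and 12.97 on ES, and Mfap4 12.80, 12.53, 13.12 and 12.97. For Col8a1 OB and OS read 12.70 and 12.76. Contractile genes included Cnn1, which read 8.46 on SB, 8.61 on SS, 9.23 on EB and 9.44 on ES, and Acta2, with differences of 0.59 and 0.41. Of 15 contractile genes 7 were higher and 1 lower in both populations, with a median of 0.04. Of 16 collagen processing genes 4 were higher and 8 lower (median -0.08), so matrix chains and the enzymes that modify them did not lean the same way.

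Hypoxia and glycolysis genes lay below sham in both populations for 15 of 20 tested and above for 0, with a median of -0.19. Car9, a carbonic anhydrase switched on by low oxygen, read 9.70 on SB, 10.10 on SS, 8.53 on EB and 9.53 on ES. Slc2a1, the glucose transporter GLUT1, read 12.64 on SB, 12.71 on SS and 12.24 on each of EB and ES, and Vegfa, the vessel growth factor, read 13.37, 13.54, 12.83 and 13.27. OVX callus was also below sham for Slc2a1 (12.05 and 12.27) and Car9 (9.23 and 9.32) but not for Vegfa (13.35 and 13.65). The mean level of the list was 12.08 on SB and 12.17 on SS. It was 11.89 on OB and 11.91 on OS, and 11.82 on EB and 11.99 on ES, so OVX callus shared the lower level. Immediate early and heat shock genes were lower in both populations for 14 of 23 and higher for 2, with a median of -0.14. Nr4a1, an early response nuclear receptor, read 11.04 on SB, 10.89 on SS, 10.52 on EB and 10.35 on ES, and OVX callus was at 10.54 and 10.35.

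**Figure D4:**
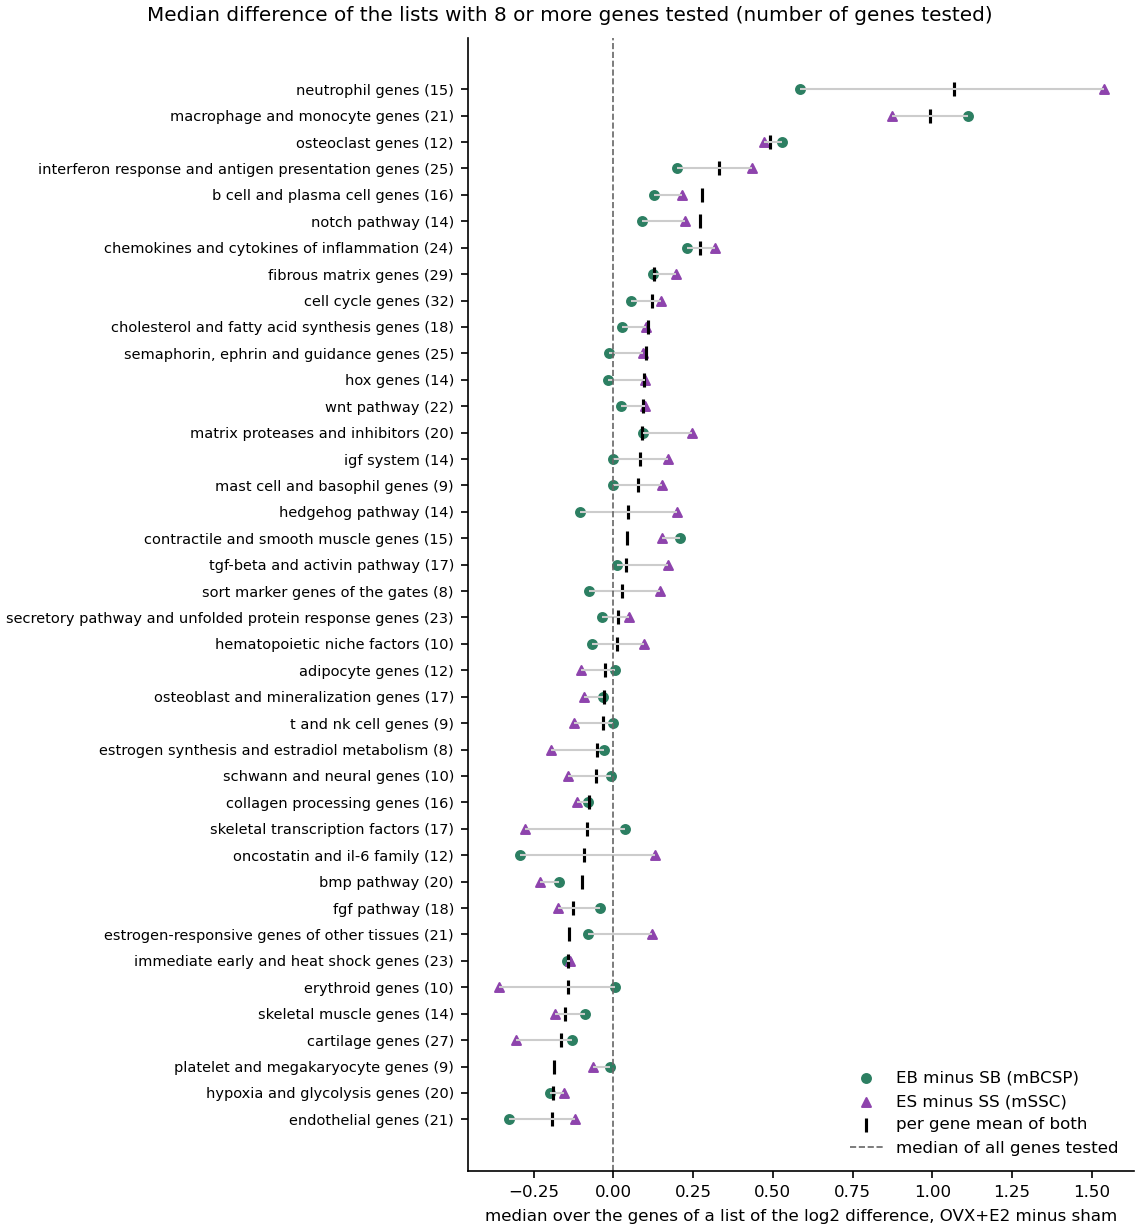
Median log2 difference between OVX + E2 and sham callus (horizontal axis) of each gene list with 8 or more genes tested, with circles for mBCSPs, triangles for mSSCs, a black bar for the median of the genes' mean differences and a dashed line for all genes tested. Neutrophil, macrophage and osteoclast genes are set off to the right, and endothelial, hypoxia and platelet genes lie at the left end, with medians of -0.19.

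The receptors for estradiol were measured at modest levels. Esr1, which encodes estrogen receptor alpha, read 8.58 on SB, 8.48 on SS, 8.63 on EB and 9.13 on ES, with 9.61 and 9.11 on OB and OS. Its other 2 probe sets gave mean differences of -0.02 and 0.07 against 0.35 for the one used. Esr2, for estrogen receptor beta, had 0.42 in mBCSPs and -0.54 in mSSCs, and Gper1, a membrane receptor for estrogen, 0.34 and 0.10, while SIB and SIS, at 11.19 and 10.73, lay above EB and ES for Gper1. Pgr, for the progesterone receptor, which estradiol induces in many tissues, was below the filter and was not tested. Of 21 estrogen-responsive genes known from other tissues 7 were higher and 9 lower in both populations, with 0 called. Their median was -0.14, while the medians within mBCSPs and mSSCs, -0.08 and 0.12, had opposite signs. Ltf was the 1 member past a log2 of 1 in both, and it is on the neutrophil list too. Cyp1b1, an enzyme that breaks down estradiol, read 12.87 on SB, 12.29 on SS, 12.09 on EB and 11.58 on ES, with OVX callus at the level of SB and SS (12.83 and 12.26). SIB and SIS read 9.65 and 8.70 for Cyp1b1, below EB and ES.

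A list of 7 bone healing genes discussed in the study had 6 members tested. Of these 5 were higher and 1 lower in both populations, with a median of 0.40, and 0 passed the test. Their mean level was 10.802 on SB, 10.638 on SS, 11.064 on EB and 11.2 on ES. OVX callus lay between, with 10.945 on OB and 10.748 on OS. The study discusses these genes from these samples, so the list's direction is not independent evidence. Its text reports Ihh, Bmp1, Fbn2, Fgfr2 and Osm as lower in OVX callus and back at wild-type level in OVX + E2. Those values were normalized against a reference of other arrays. Here the mean of the list, which also holds Col14a1, was above SB and SS in OVX callus of both populations. Osm, oncostatin M, a myeloid cytokine that promotes bone formation, read 7.71 on SB, 7.55 on SS, 8.12 on EB and 9.78 on ES (mean difference 1.32, SE 0.65, limma adjusted p = 1). SIB and SIS each read 9.41, above EB and below ES. The Osm level stood highest on ES, the array with the highest neutrophil list and the highest Ptprc of the 4, and the part of blood cells in it was not tested. Col14a1, a fibril-associated collagen, had differences of 0.33 and 0.53, and its other probe sets had mean differences of 0.24 and 0.65. It read 12.57 on SB and 12.22 on SS, and 13.06 on OB and 12.45 on OS. Fbn2, a fibrillin, had 0.37 and 0.31, and Bmp1, a collagen-trimming protease, 0.24 and 0.52, though its other probe sets gave means of 0.05 and -0.26. For Bmp1 OVX callus was above sham too, with 12.65 on OB and 11.93 on OS against 12.11 on SB and 11.37 on SS. Fgfr2, a receptor of bone growth, had -0.25 and -0.67, and its other probe sets gave means of 0.13 and 0.50.

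Signalling pathways of the callus showed small and mixed differences, with 0 genes called in each. BMP pathway genes leaned down, with 1 of 20 higher and 9 lower in both populations and a median of -0.10. Gdf5, a joint and cartilage growth factor, read 10.95 on SB, 10.90 on SS, 10.14 on EB and 10.50 on ES, and Grem1, a BMP antagonist, had -0.81 and -0.29. In the FGF pathway 5 of 18 were higher and 9 lower. Its inhibitors were not alike: Spry1 had 0.916 and 1.003 and Spry4 -0.475 and -1.029. Of 22 Wnt genes 10 were higher and 4 lower in both populations (median 0.09), with the antagonist Sfrp4 at 0.69 and 0.42 and the agonist Rspo2 at -0.35 and -0.32. Rspo2 was lower still on SIB and SIS, at 7.67 and 7.61, than on EB and ES, at 10.03 and 9.78. Of 14 Notch genes 7 were higher and 2 lower (median 0.27), led by the target gene Hey1 with 0.44 and 0.67. Hedgehog genes (14 tested) were split 5 and 3, TGF-beta and activin genes (17 tested) 7 and 3, and IGF genes (14 tested) 4 and 2. Inhba, an activin subunit, had -0.58 and -0.64, and Tgfb3 0.60 and 0.45. In the oncostatin and interleukin-6 family of 12 genes 1 was higher and 5 lower in both, with Lif and Socs3 at mean differences of -0.47 and -0.32.

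Of 32 cell cycle genes 12 were higher and 3 lower in both populations, with a median of 0.12. E2f1 and Kif20a had mean differences of 0.80 and 0.48 and Cdc6 -1.02. Cholesterol and fatty acid synthesis genes (18 tested) were higher for 7 and lower for 4, with Dhcr7 at 0.71 and 0.99 (against SIB and SIS -0.93 and -0.28) but Fdps at -0.37 and -0.64. Among adipocyte genes (12 tested, 4 higher and 5 lower in both) Pparg, the master regulator of fat cells, read 8.02 on SB, 7.36 on SS, 8.84 on EB and 8.52 on ES. OVX callus was higher still for Pparg, with differences from sham of 1.03 and 1.64, while Adipoq was at the floor on EB and ES. Secretory pathway genes (23 tested) had 5 higher and 5 lower in both, and Hox genes (14 tested) 3 and 3.

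For 6805 genes the 2 population-matched differences had opposite signs or 1 of them was 0. In 29 genes both passed a log2 of 1 in size with opposite signs. The direct test of whether the OVX + E2 difference was larger in mSSCs than in mBCSPs called 0 genes in limma (0%). Before adjustment 164 of the 14504 genes had p under 0.05, fewer than this threshold passes on average when no gene differs. After adjustment no p was below 1. With no filter on low values it called 10 of 17087. The genes of smallest p included Ptgds, a prostaglandin D synthase, which read 11.54 on SB and 7.95 on EB but 8.98 on SS and 9.49 on ES. Abcc9, a potassium channel subunit of pericytes, read 9.07 on SB, 7.75 on EB, the floor on SS and 7.84 on ES. In the other direction Hbb-bh1, an embryonic globin, read 9.28 on SB and 11.70 on EB but 10.17 on SS and 7.72 on ES. For Ptgds, Hpcal4, Trp63 and Ptprz1 the sham mBCSP array SB held the highest of the 4 values.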

How the data were processed

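RNA of double-sorted cells was amplified in 2 rounds and hybridized to Affymetrix mouse arrays, 1 array per population and group. The deposited values are log2 levels for 45101 probe sets on 17 arrays. The submitters' processing notes name MAS5 without a version and the study's methods name other tools, so which of them the authors used for these values is not settled. Array number, not read depth, limits the precision.

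Control probe sets were left out (64). Of the rest, 34945 had 1 gene symbol in the platform annotation, 932 had several and 9160 had none. Values were quantile normalized, raised to the 20th percentile (5.951) and reduced to the probe set of highest mean per gene. A gene was tested if 2 arrays or more reached the 40th percentile (7.198). limma 3.58.1 in R 4.3.3 fitted a level for each pair of arrays plus a population term, with trend and Benjamini-Hochberg adjustment, on 7 residual degrees of freedom. The code was tested on simulated data. Named genes were the called genes, the 15 with the largest shared difference in each direction, the 5 of smallest p in each direction for the population difference, up to 4 leading members of each list and up to 2 with opposite differences, and the sort markers and genes discussed in the study. The comparison and its 43 gene lists were chosen with earlier results of these data known. OIB and OIS carry conflicting labels and entered the fit as a pair of their own, in no group.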

Additional observations from a re-analysis of the deposited data

How the results depend on the processing

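The calls are few and depend on single arrays. Beside the 3 genes called, limma called 5 with the floor at the 30th percentile, 5 with no filter, 0 on the 4 arrays alone and 5 with all 4 sham callus arrays in 1 group. In the last setting Tmem87a and Tceanc2 were lost, and Brinp3, Dcstamp, Lgr5 and Pappa2 were called higher. Of these, Dcstamp and Lgr5 passed the filter only through EB and ES. On the 6 arrays EB, ES, OB, OS, SB and SS, Tmem87a and Tceanc2 were also lost (limma adjusted p = 0.233 for each) and Igk was called (0.0423). Leaving out 1 array gave from 0 to 7 calls: 0 without EB, ES, SB or SS and 7 without SI or BI. The study's methods name a t-test for comparing 2 groups, but not for the arrays. Run on the 4 arrays, it takes the mBCSP and mSSC arrays of a group as replicates. It called 747 of 14504 genes unadjusted, near the number its threshold passes on average when no gene differs, and 0 after Benjamini-Hochberg adjustment. With SIB and SIS in place of SB and SS, 546 genes were called, 541 lay past a log2 of 1 higher and 474 lower, and 23 of 128 named genes changed sign. Of the named genes past a log2 of 1 in both populations these were Gpm6a to 0.643, Mmp8 to -0.341, Nefl to 0.197, Stx19 to -0.931 and Tmem87a to 0.256. Under that choice the genes higher in both populations fell from 13 to 2 of 15 for neutrophils and from 9 to 6 of 16 for B and plasma cells, where the lower genes went from 1 to 4. The list medians were -1.182 for cartilage, 0.433 for fibrous matrix, 0.267 for neutrophil, 1.576 for macrophage, 0.987 for osteoclast, 0.069 for B cell and plasma cell, -0.8 for immediate early and heat shock, -0.765 for hypoxia and 0.626 for interferon genes. The B cell and plasma cell median was 0.156 and the immediate early median -0.216 with the probe set of widest range, and the latter was -0.163 on the deposited values. Genes past 1 numbered 46 lower with the probe set of widest range, and 165 higher and 72 lower over every probe set. A size of 0.6 gave 301 and 139, and a size of 2 gave 6 and 5. The test between populations called 10 genes with no filter and 0 under each of the other settings run. The cause of these shifts was not tested.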
